A study of Triticum aestivum with 15 samples.

Results

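The 200 transcripts that gave the strongest signals in dry wheat seed were followed through the first 48 hours of germination, and most of them declined between 12 and 48 hours. Relative abundance was measured as the intensity of probe sets, the groups of short probes that represent 1 transcript or several similar ones on the Affymetrix Wheat Genome Array. Members were chosen by ranking 61115 probe sets, with the manufacturer's controls and the reporter probe sets left out, by the mean of log2(intensity + 16) over the 3 arrays of dry seed, and the highest 200 of them were taken. Seeds of the bread wheat cultivar Jimai 20 were sampled dry, at 0 hours after imbibition (HAI), and at 12, 24, 36 and 48 HAI, after soaking in sterile water for 12 hours and germination in dishes. Each stage had 3 biological replicates on 3 arrays. The samples were whole germinating seeds, so a change can come from any tissue of the grain, and fewer cells of a type cannot be told apart from less RNA per cell.

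A mature seed carries messenger RNA that was made while the seed developed on the mother plant. These stored transcripts survive drying and are the first templates for protein synthesis once water enters. Late embryogenesis abundant (LEA) proteins, which include the Em proteins and the dehydrins, are hydrophilic proteins that build up as the embryo dries and are known from many plants to accompany desiccation tolerance. Their genes are commonly induced by abscisic acid, the hormone that maintains maturation and dormancy. Wheat is a hexaploid, so similar gene copies often share probes.

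The values at 0 HAI chose the members, so everything said here of levels relative to 0 HAI is a description without a test. The last members inside the list were TaAffx.43423.1.A1_at at rank 199, with an intensity of 37329 ± 3392 (SD, n = 3), and Ta.28664.1.S1_s_at at rank 200, with 37238 ± 1926. Just outside lay Ta.9601.1.S1_at at rank 201, with 37208 ± 1284, and Ta.23429.1.S1_at (LOC542966) at rank 202, with 37070.5 ± 555. The border therefore fell between probe sets closer to each other than the spread between their replicate arrays. Rank follows signal and not the number of transcript molecules, since probe sets differ in how well they hybridize. At the head of the list, TaAffx.144000.1.S1_x_at had intensities of 113630.0, 103072 and 97839 on the 3 arrays of dry seed.

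The members belonged to 145 sequence clusters by the numbers in their probe set names, and 36 of these clusters supplied more than 1 member. Of the 200 members, 120 (60%) were on probe sets marked by the manufacturer as able to detect several similar transcripts, against 12704 of all 61115 probe sets (20.8%). A gene symbol or a description could be given to 34 members. Only 16 of these, from 11 genes, carried a name that tells what the gene encodes. The other 18 had only a locus symbol, and 166 members had neither, so they are described by their probe sets. No probe set on the array could be named here as a gliadin, glutenin or globulin gene, so the endosperm was not checked by its storage protein genes. The list where alpha-amylase inhibitors and serpins were sought, as markers of endosperm and aleurone, had no members. Its 4 named probe sets had a median log2 level of 7.50 in dry seed, and 1 was dim at all stages. The 2 named photosynthesis probe sets, markers of green leaf, had a median of 10.04 and were not members either. Em, LEA and dehydrin genes, taken here as embryo markers, were among the highest signals of dry seed, but their tissue was not tested. The list of oil body and lipid proteins, where oleosin, the remaining embryo marker, was sought, had no members. Its 4 named probe sets had a median log2 level of 9.82 in dry seed, beside 15.4 for all named LEA and Em probe sets. All 4 rose from 12 to 48 HAI, where 16% of all probe sets were called higher. The list is wider than oleosin, so these values are not read as those of oleosin.

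The 200 members held 17.5% ± 0.572, 11.9% ± 0.890, 8.35% ± 0.0959, 7.06% ± 0.563 and 7.23% ± 0.151 of the summed intensity of all probe sets at 0, 12, 24, 36 and 48 HAI (SD, n = 3 arrays each). The share was lower on all 12 arrays of imbibed seed than on any array of dry seed. The arrays of dry seed chose the members, which favours a high share there, so nothing is read from this separation. As a share within an array, it does not change when an array is multiplied by a factor. The cre hybridization control, a labelled RNA that is added to each sample just before hybridization and lies in the same range of signal, also differed between stages. Its intensity was 57504 to 63931 at 0 HAI, 32957 to 45634 at 12 HAI, 29065 to 33076 at 24 HAI, 25392 to 33456 at 36 HAI and 30632 to 34989 at 48 HAI. On the log2 scale its stage means were 0.67 lower at 12 HAI than at 0 HAI and 0.87 lower at 48 HAI. Relative to 12 HAI its stage means differed by -0.27, -0.35 and -0.20 at 24, 36 and 48 HAI. The part of these shifts in the members' decline was not tested.

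**Figure D1:**
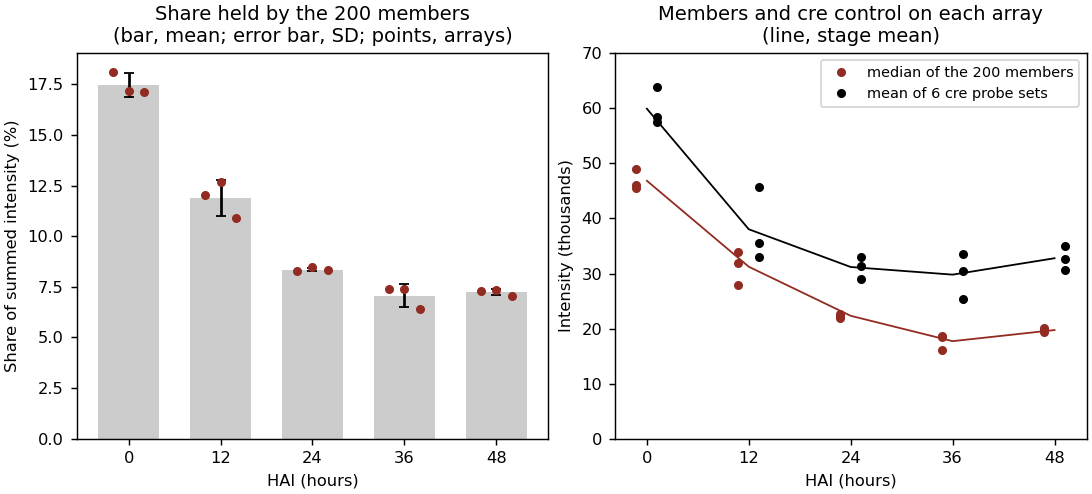
Left, share of the summed intensity of each array (%) held by the 200 members, by hours after imbibition, with bars for stage means, error bars for the SD and points for the 3 arrays. Right, median intensity of the members and mean intensity of 6 cre control probe sets on each array, with lines through stage means. The members' share was 17.5% in dry seed and 7.23% at 48 HAI, and the cre control was also highest at 0 HAI.

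In the deposited values, all 200 members had a lower mean at each later stage than in dry seed, but this direction depended on the scaling. Set level on the cre controls, 100 of 200 members were lower at 12 HAI and 147 at 48 HAI. Set level on the poly-A controls, RNAs added at the start of labelling, only 15 were lower at 12 HAI and 90 at 48 HAI, and the members' median changes of 0.97 and 0.14 stood beside 0.83 and 0.65 for all probe sets. The following counts relative to dry seed are of the deposited scaling. At 12 HAI, 151 of the 200 members were still within 2-fold of their level at 0 HAI and 5 were at least 4-fold lower. Among all probe sets 80.4% were within 2-fold and 1.14% were at least 4-fold lower at 12 HAI, and nothing is read from the difference since 0 HAI chose the members. At 24, 36 and 48 HAI, 55, 80 and 75 members were at least 4-fold lower than in dry seed, as were 3.67%, 5.1% and 5.08% of all probe sets. At the same stages 73, 62 and 64 members were within 2-fold of dry seed, as were 68.0%, 63.8% and 64.2% of all probe sets. The median change of the members from dry seed on the log2 scale was -0.67, -1.27, -1.59 and -1.46 at 12, 24, 36 and 48 HAI. When the arrays were set level on their cre controls, 28% of the members were at least 4-fold lower at 48 HAI and 60.5% were within 2-fold, in place of 37.5% and 32%.

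In the deposited values, the members that declined did so at different times. Of the 75 members at least 4-fold lower at 48 HAI than at 0 HAI, 27 had their largest drop between 0 and 12 HAI, 33 between 12 and 24 HAI and 15 between 24 and 36 HAI. None had it between 36 and 48 HAI. Of the members, 129, 95, 79 and 85 were among the 200 highest probe sets at 12, 24, 36 and 48 HAI. At the top of the ranking at 48 HAI, 9 of the 10 highest probe sets and 35 of the 50 highest were members. Of the 115 probe sets that had taken members' places by 48 HAI, 50 had ranked from 201 to 400 in dry seed and 36 had ranked beyond 1000.

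**Figure D2:**
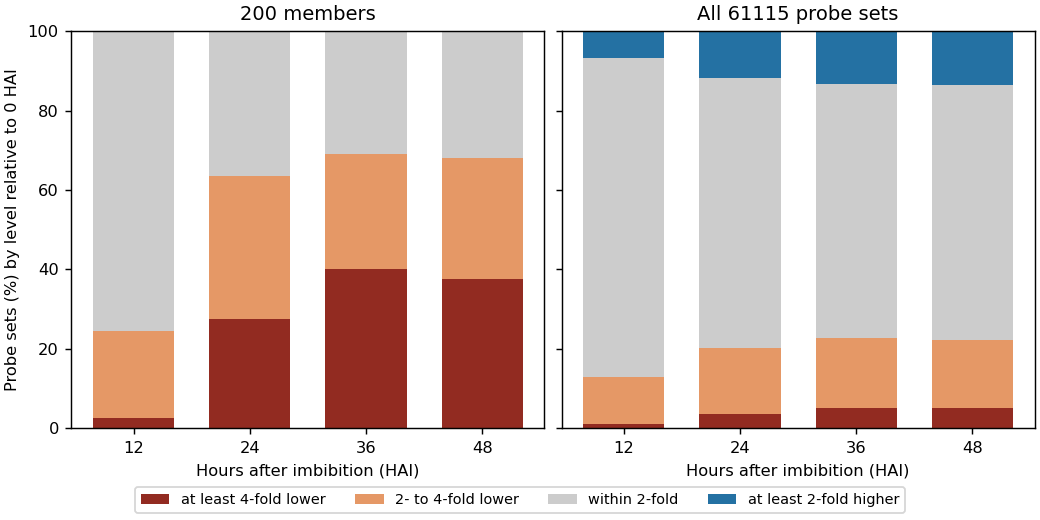
Percentage of probe sets in each class of level relative to 0 HAI, by hours after imbibition, for the 200 members (left) and for all 61115 probe sets (right). The class at least 4-fold lower grew to 80 of 200 members (40%) at 36 HAI and held 75 at 48 HAI in the deposited scaling, in which no member was at least 2-fold higher.

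Changes after 12 HAI were tested in limma on the 12 arrays of imbibed seed alone, which had no part in the choice of the members, with p adjusted over all 61115 probe sets and a threshold of 0.05. From 12 to 48 HAI, 134 of the 200 members (67%) fell and 3 rose, while 63 did not pass the test. Over all probe sets, 17.4% were called lower and 16% higher. Many of these are dim. Without probe sets whose stage means after 12 HAI or at it all lay under 64, 29.7% were called lower and 27.7% higher, beside 71% of members lower. Replicate arrays also varied less in the members, with a median residual SD of 0.130 on the log2 scale, against 0.396 for all probe sets. Members and background therefore differ in signal and precision. The median change was -0.75 for the members and -0.06 for all probe sets on the log2 scale. A sign of RNA quality moved with the stages, since the 3′ over 5′ intensity ratio of the glucose-6-phosphate dehydrogenase control averaged 9.53, 12.4, 16.1, 16.5 and 28.6 at 0, 12, 24, 36 and 48 HAI, and its part in the members' falls was not tested. On single arrays the ratio was 23.6 to 37.1 at 48 HAI and 9.74 to 16.3 at 12 HAI. At least 4-fold falls were called in 50 members (25%), against 3.09% of all probe sets. These 50 had median log2 levels of 14.33, 12.35, 11.02 and 10.89 at 12, 24, 36 and 48 HAI. None of the 50 was among the 200 highest at 48 HAI, whereas 60 of the 63 members that did not pass the test were.

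In the deposited scaling, most of the fall after 12 HAI came between 12 and 36 HAI. With the hybridization or poly-A controls, the members' median fell most from 36 to 48 HAI, by -0.33 and -0.86. In that interval the medians of all probe sets were -0.17 and -0.59 with these scalings. From 12 to 24 HAI, 110 members (55%) fell and 5 rose, where 15.5% of all probe sets were called lower and 14.2% higher. From 24 to 36 HAI, 80 members (40%) fell and none rose, though 96 had an unadjusted p under 0.05 in either direction, and the background was 3.13% lower and 3.12% higher. From 36 to 48 HAI, 13 members (6.5%) fell and 6 (3%) rose, beside a background of 6.03% lower and 6.14% higher. Without 36 HAI replicate 1 or 48 HAI replicate 1 or 2, 3% fell and 1.5% rose, and without 36 HAI replicate 2, 3.5% fell. The median change of the members was -0.54, -0.28 and -0.03 in these 3 intervals, and that of all probe sets was -0.06, -0.02 and 0.02. In each of the 4 contrasts, the replicate arrays of both stages lay apart for every member called, as they did for 98.8% to 100% of all probe sets called. In 59 members (29.5%) the calls were lower from 12 to 24 HAI, lower from 24 to 36 HAI and none after, as in 1.48% of all probe sets. In all 3 intervals 11 members (5.5%) fell, against 0.154% of all probe sets. No interval was called in 79 members (39.5%), against 65.1%.

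Scaling bears on the separate intervals. With arrays scaled to the poly-A controls, 23.5% of members fell and 33.5% rose from 24 to 36 HAI, where 1.03% of all probe sets were called lower and 22.5% higher. From 36 to 48 HAI that scaling gave 96.5% of members lower and 0% higher, beside 34.0% and 0.602% of all probe sets. It moved the median of all probe sets to 0.42 and -0.59 in these intervals, and relative to those medians the members' medians were still lower, by 0.13 and 0.27. With the hybridization controls, falls were called in 33.5% of members from 12 to 24 HAI and in 21.5% from 24 to 36 HAI, beside 8.29% and 0.704% of all probe sets. From 36 to 48 HAI the hybridization controls gave 4% lower and 0% higher in members, beside 5.06% and 0.641% over all. With quantile normalization 8% of members fell and 6.5% rose from 36 to 48 HAI, beside 6.12% and 6.23% of all probe sets.

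**Figure D3:**
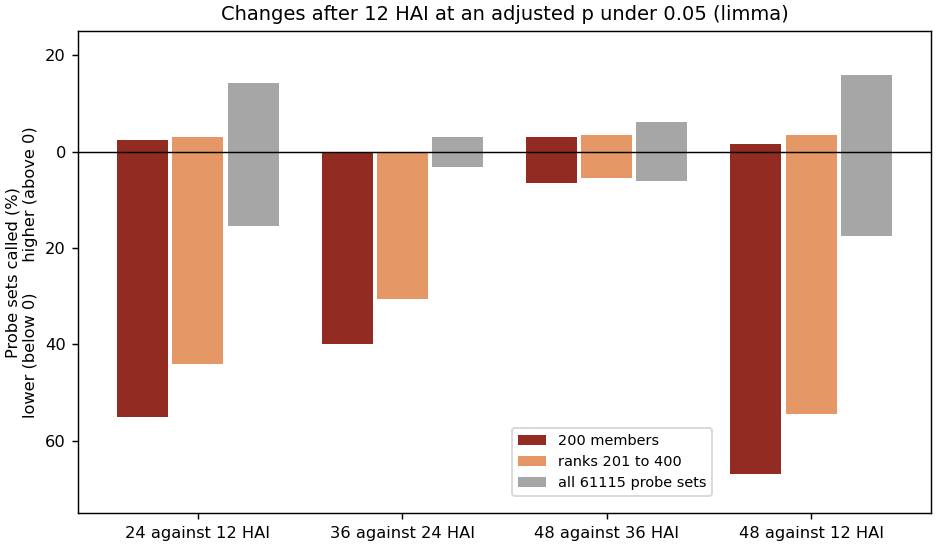
Percentage of probe sets called higher (above 0) and lower (below 0) at an adjusted p under 0.05 in limma, for each contrast between stages of imbibed seed, in the 200 members, in ranks 201 to 400 of dry seed and in all probe sets. Falls were called in 55%, 40%, 6.5% and 67% of the members in the 4 contrasts from left to right.

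The probe sets next in rank gave values of the same kind. Among ranks 201 to 400 of dry seed, 109 of 200 fell and 7 rose from 12 to 48 HAI, with a median change of -0.46, beside 134, 3 and -0.75 for the members. Falls were called in 88 of these from 12 to 24 HAI and in 61 from 24 to 36 HAI. The difference between both sets was not tested. Within the list, falls from 12 to 48 HAI were called in 36, 34, 35 and 29 members of the successive blocks of 50 ranks, and at least 4-fold falls in 7, 14, 17 and 12 of these.

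The Em genes, which encode the small, very hydrophilic group of LEA proteins first described from wheat embryos, showed the steepest decline of the named members. The loci represented were LOC543497 (EM) by a pair of probe sets and LOC543480 (Em, EMH2) by 3. The s_at probe set of LOC543497 had intensities of 77441, 73754 and 71265 at 0 HAI, 47363, 53086 and 40149 at 12 HAI, 7876, 8844 and 8715 at 24 HAI, 844, 836 and 1021 at 36 HAI, and 368, 376 and 379.9 at 48 HAI. No arrays of neighbouring stages overlapped, where the step from dry seed is a description. The same held for 41.8%, 24.9% and 30.1% of all probe sets in the successive steps after 12 HAI. The log2 change of this s_at probe set was -2.46 ± 0.14 (SE) from 12 to 24 HAI (adjusted p = 4.3e-07), -3.22 ± 0.14 from 24 to 36 HAI (adjusted p = 2.3e-06) and -1.22 ± 0.14 from 36 to 48 HAI (adjusted p = 0.00055). From 12 to 48 HAI it fell 119-fold.

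LOC543480 followed the same course. Its plain probe set, Ta.25025.1.S1_at, had intensities of 62608, 54383 and 54375 at 0 HAI, 35057, 37389 and 30813 at 12 HAI, 3276, 2822 and 3173 at 24 HAI, 413, 446 and 418 at 36 HAI, and 325, 316 and 285 at 48 HAI. The fall from 12 to 24 HAI was 11.1-fold and that from 24 to 36 HAI 7.02-fold, so most of the loss was complete by 36 HAI. Over all 5 Em probe sets, stage means were 54727 to 74153 at 0 HAI, 33703 to 46866 at 12 HAI, 3090.0 to 9738 at 24 HAI, 426 to 914 at 36 HAI and 276 to 410.2 at 48 HAI. At 12 HAI they were 0.66 to 0.73 lower than in dry seed on the log2 scale, beside 0.67 for the cre control and a median of -0.67 for the members, so by this description the steep part of the decline lay after 12 HAI. Their changes from 12 to 48 HAI, -6.42 to -6.93, were the 8th, 10th, 13th, 16th and 17th largest falls of all 61115 probe sets. The Em probe sets share similar targets and are not independent of each other.

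Another member, Ta.25025.2.S1_at, had the largest fall on the array from 12 to 48 HAI, first of 61115 probe sets. It has no name here but shares the cluster number of LOC543480. Its intensities were 39550.3, 45931 and 34307 at 12 HAI, 4152, 3505 and 3846 at 24 HAI, 244, 279.7 and 245 at 36 HAI, and 179.6, 172 and 155 at 48 HAI. The fall was 215-fold, a log2 change of -7.75 ± 0.14 (adjusted p = 7.5e-10). In dry seed it had ranked 23rd, and at 48 HAI it ranked 21271st. Among members that share no cluster with Em, the largest fall was that of the unnamed Ta.10760.1.S1_at, with 291, 335 and 359 at 48 HAI and 17099, 17189.6 and 15965 at 12 HAI, a 48.9-fold difference (adjusted p = 9.3e-10).

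**Figure D4:**
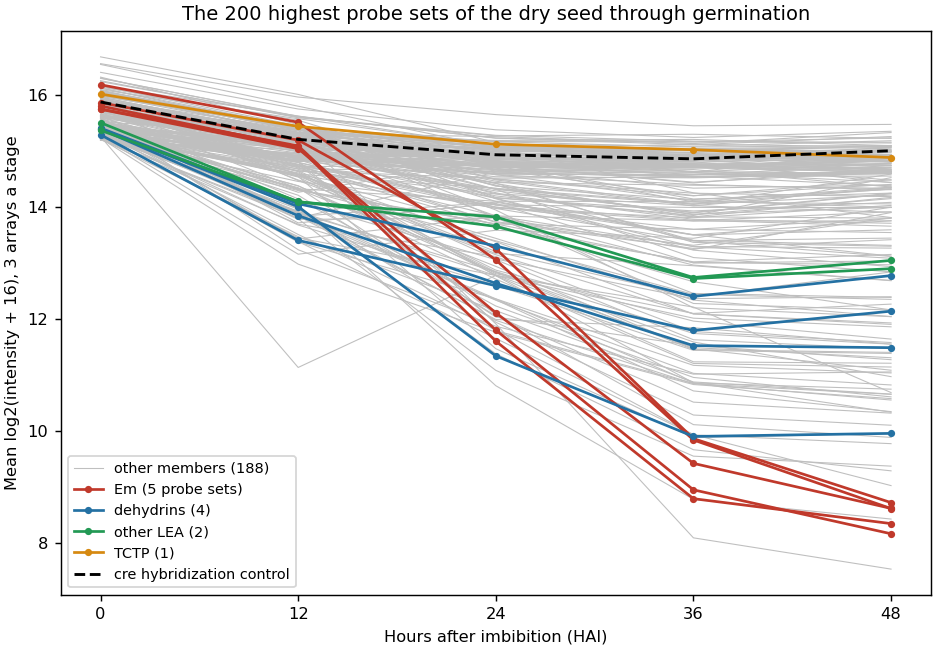
Mean log2(intensity + 16) of each of the 200 members at 0, 12, 24, 36 and 48 HAI (3 arrays a stage), with the Em, dehydrin, other LEA and TCTP probe sets in colour, other members in grey and the mean of the cre hybridization control as a dashed line. The 5 Em probe sets lie near the cre control until 12 HAI and between means of 276 and 410.2 in intensity at 48 HAI.

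The other LEA genes had smaller changes than Em, a difference between genes that was not tested. LOC543476 (LEA1, PMA2005), a LEA gene of wheat, had 41047, 41703 and 43672 at 0 HAI, 15689.7, 18856 and 17968 at 12 HAI, 11364, 12960.4 and 14329 at 24 HAI, 5860.1, 6682 and 7728 at 36 HAI, and 6838, 9519 and 6721 at 48 HAI. Arrays of 36 and 48 HAI overlapped. Its fall from 12 to 48 HAI was 2.30-fold, a log2 change of -1.20 ± 0.18 (adjusted p = 0.00033). LOC543084, described in a supplementary table as a LEA protein by its match to rice, averaged 8606 ± 2210.2 at 48 HAI and 17725 ± 4324 at 12 HAI. Its change of -1.04 ± 0.33 (adjusted p = 0.035) no longer passed when 12 HAI replicate 2 or 3, or 48 HAI replicate 2 or 3, was left out (-0.83 to -1.09). On the whole list of LEA and Em probe sets, 7 of 7 members and 13 of 13 named probe sets of the array fell from 12 to 48 HAI, with medians of -6.47 and -3.91. The share called lower was 17.4% over all probe sets. Some probe sets of the list were named from supplementary tables of genes that the study had selected from these same arrays. Falls were therefore favoured in advance, and the counts are a description of the list. With the hybridization controls LOC543084 did not pass (-0.99), so that 85.7% of the 7 members fell.

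The dehydrins, LEA proteins that bind water and stabilise membranes and proteins, were represented by 4 members from 3 genes. All 4 fell from 12 to 24 HAI and again from 24 to 36 HAI, where 15.5% and 3.13% of all probe sets were called lower. Naming favoured genes that change in these arrays, so this count is a description. With the hybridization controls 50% and 25% of the 4 passed in these intervals, and with the poly-A controls 50% passed in the second one. LOC542888 had 38450.2, 44268 and 46648 at 0 HAI, 14581, 17679.7 and 17008 at 12 HAI, 2408, 2755 and 2549.5 at 24 HAI, 846, 947 and 1027 at 36 HAI, and 940.1, 969 and 1015 at 48 HAI. At 12 HAI it was 1.39 lower than in dry seed on the log2 scale, beside 0.67 for the cre control. This is a description, since dry seed chose the members and all 200 were lower at 12 HAI in the deposited values. From 36 to 48 HAI its change did not pass. Its change from 12 to 48 HAI was -4.05 ± 0.12 on the log2 scale (adjusted p = 5.4e-09), or 16.5-fold. The gene of accession BJ291786, described as a dehydrin, averaged 2849 ± 192 at 48 HAI and 14653 ± 911 at 12 HAI, a fall of 5.12-fold (adjusted p = 5.3e-07).

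LOC543293 (Rab15), an abscisic acid responsive dehydrin gene of wheat, had the smallest change of the 3 dehydrin genes, which were not tested against each other. Its first probe set had 46709.9, 42702 and 40739 at 0 HAI, 13981, 20002 and 17485 at 12 HAI, 9563, 9061 and 11764 at 24 HAI, 4575, 5114 and 6647 at 36 HAI, and 7373, 6843 and 6696 at 48 HAI. Its fall from 24 to 36 HAI did not pass when 24 HAI replicate 3, or 36 HAI replicate 1 or 2, was left out (-0.79 to -0.87). All 3 arrays of 48 HAI lay above those of 36 HAI, but that difference of 0.37 ± 0.18 did not pass (adjusted p = 0.26). The change from 12 to 48 HAI was -1.28 ± 0.18 (adjusted p = 0.00028), and that of its other probe set was -1.26 ± 0.12 (adjusted p = 1.5e-05). In contrast to Em, the dehydrins were 1.35 to 1.89 lower at 12 HAI than in dry seed on the log2 scale, more than the 0.67 of the cre control, as a description of the deposited scaling. Among all named dehydrin probe sets, 7 of 8 fell from 12 to 48 HAI and none rose, beside 17.4% of all probe sets called lower. As for the LEA list, the naming favoured genes that change in these arrays.

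**Figure D5:**
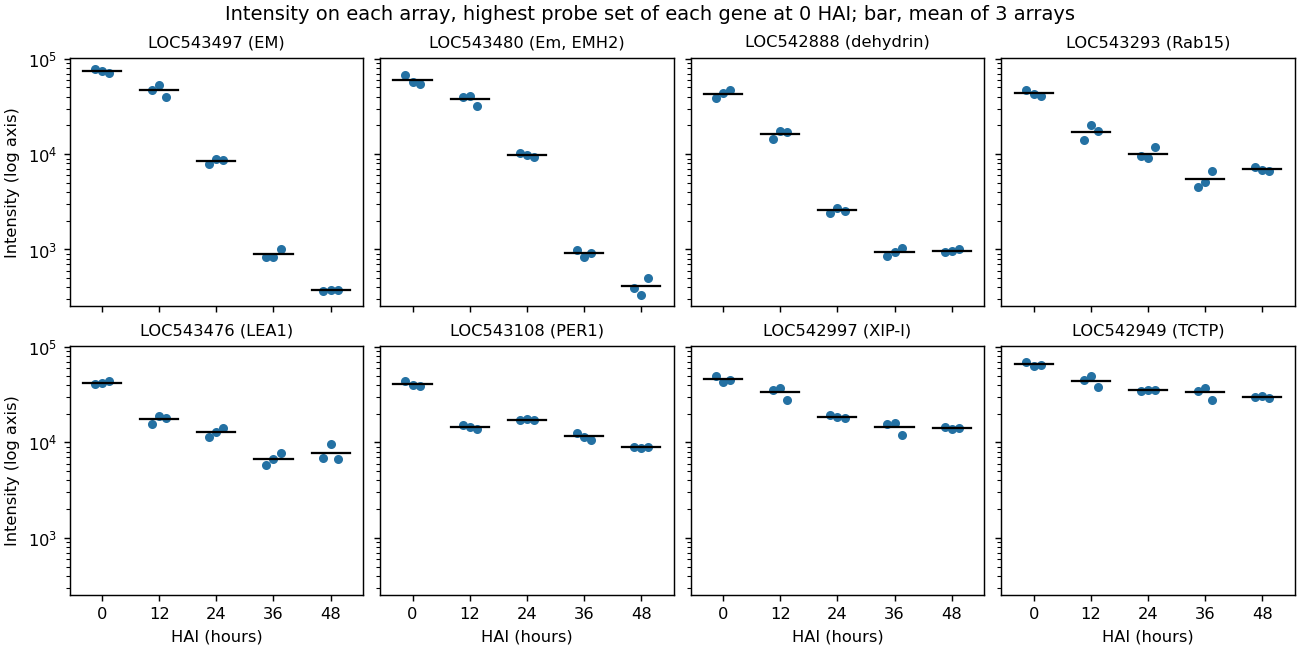
Intensity on each of the 3 arrays per stage (points, log axis) with the stage mean (bar) for 8 named members, from 0 to 48 HAI. Each gene is shown by its highest probe set in dry seed. At 48 HAI the arrays of LOC543497 (EM) lay between 368 and 379.9, whereas those of LOC542949 (TCTP) lay between 29499.9 and 30991.

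LOC542949 (TCTP) encodes the translationally controlled tumor protein, a conserved and usually abundant protein of growing cells. It was among the most durable of the named members, with 70057, 63861 and 64344 at 0 HAI, 45388, 49621 and 38441 at 12 HAI, 34869, 35865 and 35733 at 24 HAI, 35022, 37434 and 27789 at 36 HAI, and 29809.8, 30991 and 29499.9 at 48 HAI. None of its steps between neighbouring stages of imbibed seed passed the test, with adjusted p of 0.13, 0.81 and 0.64. The whole change from 12 to 48 HAI was small, -0.56 ± 0.14 (adjusted p = 0.011), and did not pass under quantile normalization (-0.21) or with the hybridization controls (-0.50). It ranked 27th in dry seed and 60th at 48 HAI.

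The xylanase inhibitor gene LOC542997 (XIP-I), whose protein blocks fungal xylanases in the grain, took an intermediate course. Ta.1200.1.S1_at had 50325, 43182 and 44764 at 0 HAI, 35436, 37114 and 28123 at 12 HAI, 19610.0, 18418 and 18104 at 24 HAI, 15759, 15869 and 12004 at 36 HAI, and 14522, 13954 and 14165 at 48 HAI. The drop from 12 to 24 HAI was 1.78-fold (adjusted p = 0.0015), and the later steps did not pass. Its other probe set gave 1.69-fold in that interval (adjusted p = 0.0028). With the hybridization controls neither passed, at log2 changes of -0.59 for Ta.1200.1.S1_at and -0.52 for Ta.1200.1.S1_x_at.

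PER1 (LOC543108), named as a peroxidase in the reference and known from barley as a peroxiredoxin of dormant seed, moved differently. Its intensities were 43807, 40272 and 39533 at 0 HAI, 15388, 14407 and 13856 at 12 HAI, 17091, 17603 and 17216 at 24 HAI, 12671, 11475 and 10580.5 at 36 HAI, and 8984, 8709.5 and 8918 at 48 HAI. All arrays of 24 HAI lay above those of 12 HAI, but the difference of 0.25 ± 0.11 did not pass (adjusted p = 0.11). From 24 to 36 HAI it fell by 0.58 ± 0.11 on the log2 scale (adjusted p = 0.010), and from 12 to 48 HAI by 0.71 ± 0.11 (adjusted p = 0.00039). The first of these, Ta.14503.1.S1_at from 24 to 36 HAI, did not pass with equal array medians (-0.61), the hybridization controls (-0.48) or the poly-A controls (-0.02).

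LOC543263, described by its rice match as a plasma membrane associated protein, had 69356, 63282 and 60576 at 0 HAI, 22529.5, 23818 and 21574 at 12 HAI, 8777, 9337 and 8953 at 24 HAI, 4275, 4275 and 4443 at 36 HAI, and 3679, 3979.5 and 3957 at 48 HAI. The replicate arrays were close and no neighbouring stages overlapped, where the step from dry seed is a description. In the successive steps after 12 HAI, 41.8%, 24.9% and 30.1% of all probe sets were also without overlap. It fell 2.51-fold from 12 to 24 HAI (adjusted p = 3.6e-06) and 2.08-fold from 24 to 36 HAI (adjusted p = 0.00023).

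All 16 members with a descriptive name fell from 12 to 48 HAI, 8 of them at least 4-fold, and 1 was still among the 200 highest at 48 HAI. Of all probe sets, 17.4% were called lower and 3.09% at least 4-fold lower. Some of the 16 names came from supplementary tables of genes that the study had selected from these same arrays. Falls among named members were therefore favoured in advance, and nothing is read from their share. Among the 18 members known only by a locus symbol, from 14 genes, 10 fell, 3 of them at least 4-fold, 8 did not pass, and 14 were still among the 200 highest. The member with the highest signal at 48 HAI was unnamed. TaAffx.144000.1.S1_s_at ranked second in dry seed, with 97457, 97019 and 94235, and had 47309, 46104 and 42777 at 48 HAI against 61753, 73673 and 56569.6 at 12 HAI (adjusted p = 0.035).

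The 3 members that rose from 12 to 48 HAI had no name. Ta.5861.2.S1_x_at had 38096 ± 2581, 14226 ± 403, 25138 ± 936, 23622 ± 1789 and 25703 ± 661 at 0, 12, 24, 36 and 48 HAI (SD, n = 3 each), with a change of 0.85 ± 0.10 from 12 to 48 HAI (adjusted p = 8.4e-05). TaAffx.143999.1.S1_s_at had 39085 ± 941, 9085 ± 247, 12229 ± 449, 11069.7 ± 424 and 16271 ± 636 at the 5 stages and a change of 0.84 ± 0.10 (adjusted p = 6.4e-05). Ta.6110.1.S1_x_at, named after its values were seen, had 44633 ± 1982, 19599 ± 1355, 29052 ± 896, 31260.3 ± 3449 and 32857 ± 1245 and a change of 0.75 ± 0.12 (adjusted p = 0.00054). In the deposited values all 3 were lowest at 12 HAI and remained below dry seed at 48 HAI. The other member of the cluster of Ta.5861.2.S1_x_at, Ta.5861.1.S1_x_at, changed by -0.18 from 12 to 48 HAI, so the pair did not move alike. All 3 are on probe sets that can detect several similar transcripts.

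A pair of other members rose from 12 to 24 HAI and fell later, and both are named here after their values were seen. TaAffx.12101.1.S1_at had 40636, 38534 and 37916 at 0 HAI, 2200.1, 2239 and 2231 at 12 HAI, 6817, 7214 and 6918 at 24 HAI, 4789, 4688 and 4661 at 36 HAI, and 1702, 1529 and 1649.6 at 48 HAI. It had the largest drop of any member by 12 HAI, -4.12 on the log2 scale as a description, and then the largest rise of any member from 12 to 24 HAI, 1.64 ± 0.10 (adjusted p = 6.7e-07). It fell again by 0.57 ± 0.10 from 24 to 36 HAI (adjusted p = 0.0071) and by 1.53 ± 0.10 from 36 to 48 HAI (adjusted p = 2.7e-05). Ta.20483.1.S1_at had 17052 ± 280.0 at 24 HAI and 13409 ± 949 at 12 HAI (adjusted p = 0.033), and 8159 ± 583 at 36 HAI. The other members that rose from 36 to 48 HAI, apart from TaAffx.143999.1.S1_s_at, had all fallen from 12 to 24 HAI. The largest of these rises was that of Ta.5810.1.S1_at, with 22390.4, 24005 and 24019 at 48 HAI and 15018, 15291 and 13763 at 36 HAI (0.68 ± 0.11, adjusted p = 0.0038).

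Members of 1 cluster mostly moved alike. In the 36 clusters with more than 1 member, which hold 91 members, the changes from 12 to 48 HAI within a cluster spanned a median of 0.17 on the log2 scale and at most 1.65. The share of members on probe sets with 1 intended target was 58% among those that fell at least 4-fold, 28.6% among falls of 2- to 4-fold, 38.8% among smaller falls and 34.9% among those that did not pass the test, with no steady order. On these 80 probe sets alone, 58 members (72.5%) fell from 12 to 48 HAI and none rose, with a median change of -0.92. Taking 1 member for each cluster, 64.1% fell and 1.38% rose. Beside both counts, 17.4% of all probe sets were called lower and 16% higher. No share was counted among all probe sets with 1 intended target.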

How the data were processed

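Total RNA of 15 seed samples was hybridized to 15 arrays, 3 for each of 5 stages. The authors deposited 1 signal intensity per probe set and array, a linear MAS 5.0 value scaled to a common trimmed mean. Of 61290 probe sets, 175 controls and reporters were left out. From the deposited intensity, log2(intensity + 16) was taken, and stage means of the 12 arrays from 12 to 48 HAI were fitted in limma 3.58.1 (R 4.3.3) with lmFit and eBayes, leaving 8 residual degrees of freedom. Tests were two-sided, with Benjamini-Hochberg adjustment over 61115 probe sets and a threshold of 0.05. The SE printed is from limma. The fit was tested on simulated data, in which 87 of 100 changes of log2 1 and 100 of 100 of log2 2 were found, and 10 of 197 calls were false. The changes were few, had independent normal noise and were placed only among probe sets of high mean signal. These rates therefore do not cover dimmer probe sets or the many changes of the real arrays. Tables and figures used Python 3.11.15, numpy 2.4.6, pandas 2.3.3 and matplotlib 3.10.9.

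Names came from the probe annotation (1273 probe sets), synonyms of the wheat reference and rice matches in supplementary tables. Those tables rest on the study's differential and co-expression genes, so having a description could depend on a change in these same arrays. The genes named were, among members with a descriptive name, the 8 highest in dry seed, up to 3 for each gene list, the largest called changes of each step, the 5 with the narrowest range and those in the study's gene tables, with at most 2 unnamed members that rose and 2 that fell most. Of 17 gene lists, 3 had members. The members, lists and tests were chosen with earlier results of these data known. The 3 arrays of a stage limit the precision, and no read depth applies. Alternatives are given in the closing section. No member sequences were used here.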

Additional observations from a re-analysis of the deposited data

How the results depend on the processing

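The labels do not say whether samples of the same replicate number were paired. Deviations from stage means correlated with a median r of 0.0138 for same-numbered samples (30 pairs, -0.0299 to 0.0513) and -0.00729 for others. Little deviation was thus shared, which cannot exclude pairing. With the replicate block, 67.5% of members fell from 12 to 48 HAI (67% without it), and 42.9% of LEA and Em members fell from 36 to 48 HAI (71.4% without it); it moved no other percentage by over 1.5 times. Falls from 12 to 48 HAI stayed within 1.5 times of 67% under every alternative run. With hybridization controls, 33.5%, 21.5% and 4% of members fell in the successive intervals from 12 HAI and 0% rose in the last. With poly-A controls, 23.5% fell and 33.5% rose from 24 to 36 HAI, and 96.5% fell and 0% rose from 36 to 48 HAI. Falls from 36 to 48 HAI were 2.5% with equal array medians and 12.5% with the intensity trend. Rises then were 5% with a pseudocount of 64, 1.5% with equal medians, 6.5% with quantile normalization, 6% without dim probe sets and 7.5% with the trend. Rises from 12 to 24 HAI were 4.5% with quantile normalization and 1% for the 100 highest members. Rises from 12 to 48 HAI were 5% with quantile normalization, 0% and 2.5% for 100 and 400 members, and 0% without shared-target probe sets, an alternative chosen after seeing the data, like the cre scaling and 1 member a cluster.

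The median log2 change from 12 to 24 HAI was -0.27, -0.30 and -0.30 with quantile, hybridization and poly-A scaling and -0.39 for 400 members. From 24 to 36 HAI it was -0.37, -0.18 and 0.29 with these scalings and -0.17 for 400 members. From 36 to 48 HAI it was -0.33 and -0.86 with hybridization and poly-A controls and 0.0054 for 100 members. From 12 to 48 HAI it was -0.53 with quantile normalization and -0.63 for 400 members. Relative to 0 HAI, at least 4-fold lower at 12 HAI were 0.5% of members with equal medians, quantile, hybridization, poly-A or cre scaling, 1% of 100 members and 5% without shared-target probe sets. At 48 HAI, 23.5% were so with poly-A controls, and 49%, 58%, 57.5%, 58% and 60.5% were within 2-fold with equal medians, quantile, hybridization, poly-A and cre scaling. Of LEA and Em members, 42.9% fell from 36 to 48 HAI with a pseudocount of 1 or equal medians. Of dehydrins, 50% and 25% fell from 12 to 24 and from 24 to 36 HAI with hybridization controls. With poly-A controls 50% of them fell from 24 to 36 HAI, then 75% in the last interval. In that interval 25% rose with a pseudocount of 64, without dim probe sets or with the trend. With 100 members no dehydrin was left to count.

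Leaving out 1 array at a time gave 49.5% to 59.5% falls from 12 to 24 HAI, 33.5% to 41% from 24 to 36 HAI, 3% to 7% from 36 to 48 HAI and 60% to 70.5% from 12 to 48 HAI. Rises from 36 to 48 HAI were 1.5% to 3.5%, and LEA and Em falls then 42.9% to 71.4%. The range of the median was -0.63 to -0.45 for 12 to 24 HAI (highest without 12 HAI replicate 2) and -0.86 to -0.69 for 12 to 48 HAI. For 36 to 48 HAI it was -0.132 to 0.0289, and 0.0289 and 0.0195 were the values without 36 HAI replicate 1 and 2. Without 12 HAI replicate 1, 24 HAI replicate 3, 36 HAI replicate 1 or 2, or 48 HAI replicate 1 or 2, 42.9% of LEA and Em members fell in that interval. Among named members, 23 log2 changes turned their sign. Poly-A controls gave, from 24 to 36 HAI, 0.47 for TCTP (Ta.1310.1.S1_x_at), 0.29 and 0.19 for XIP-I (Ta.1200.1.S1_x_at and Ta.1200.1.S1_at), 0.47 for Ta.5861.2.S1_x_at and 0.42 for TaAffx.143999.1.S1_s_at. In the last interval they gave -0.52 for LOC543084, -0.46 for LOC543293, -0.76 for LOC542888, -0.65 for LOC543476, -0.70 for Ta.5861.2.S1_x_at and -0.27 for TaAffx.143999.1.S1_s_at. Hybridization controls gave 0.0024 and 0.00866 for TCTP and Ta.5861.2.S1_x_at from 24 to 36 HAI, then -0.23, -0.11 and -0.17 for LOC542888, LOC543476 and Ta.5861.2.S1_x_at. Quantile normalization gave 0.041 for TCTP from 12 to 24 HAI and 0.024 for Ta.1200.1.S1_at in the last interval. Leaving out 1 array gave, in the last interval, -0.018 to 0.12 for LOC542888 (lowest without 36 HAI replicate 1), -0.15 to 0.047 for Ta.1200.1.S1_at (above 0 without 36 HAI replicate 1 or 2) and -0.11 to 0.0035 for the gene of BJ291786, Ta.23243.1.S1_a_at (highest without 36 HAI replicate 3). From 24 to 36 HAI it gave -0.19 to 0.029 for TCTP, Ta.1310.1.S1_x_at (highest without 36 HAI replicate 3). The cause was not tested. The dim filter, the fit of all 15 arrays, the trend and the block do not apply to levels relative to 0 HAI.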
